A study of Ovis aries and Mus musculus with 20 samples.

Results

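A topologically associating domain (TAD) is a stretch of chromosome whose parts contact each other more often than they contact the neighbouring stretches, and its boundary is the narrow zone across which few contacts pass. The sites described here are boundaries found in sheep mesenteric adipose tissue (MAD) or in sheep retroperitoneal adipose tissue (RAD) and in neither of the other fat depots of the same study. The TAD lists of the 3 visceral depots gave the members: the 20-kb bin before each TAD start and the 20-kb bin after each TAD end was taken as a boundary bin, and a bin was kept if no boundary bin of either other depot lay within 40 kb. This left 152 MAD-only boundaries of 4243 boundary bins in MAD (3.58%) and 133 RAD-only boundaries of 4273 in RAD (3.11%), together 285 of the 7416 distinct boundary bins of the 3 depots. The members were thus chosen by the measured boundary calls, so their depot, number, distances and place within TADs are descriptions without a test.

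Hi-C, which ligates and sequences pairs of DNA fragments that lie close together in the nucleus, had been run on MAD, RAD and greater omentum fat (GOM) of adult female Small-tail Han sheep, 2 years old, with no treatment named in the labels. Each depot was represented by 3 libraries, from the sheep numbered 1, 2 and 3 in the labels, so that 3 animals gave all 9 libraries. TADs were listed once per depot, from merged replicates, whereas the compartment score, the A-B index, was listed per library for 132797 bins of 20 kb on 26 chromosomes. The nuclei were taken from the floating, adipocyte-bearing layer of fixed tissue that had been frozen, without sorting, so a difference in cell make-up between depots and one within a cell type cannot be told apart, and the labelled depots were not checked against marker genes here.

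Boundaries in mammals often carry the insulator protein CTCF and the ring complex cohesin, which extrudes loops until it stops there. On a larger scale chromosomes separate into an open, gene-rich A compartment and a compact, gene-poor B compartment. The A-B index scores this for each bin: a positive index marks more contact with A and a negative index more contact with B. The index was made from the same read pairs as the boundaries and is not independent of them, although the boundary call does not use it.

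By the rule every member lay over 40 kb from the boundaries of the other depots, and almost all lay inside a TAD of both. The distance to the nearest boundary of the other 2 depots ran over 60 to 1600 kb with a median of 230 kb for MAD-only boundaries, and over 60 to 1580 kb with a median of 200 kb for RAD-only boundaries. Of the MAD-only boundaries 42 (27.6%) lay 60 to 100 kb away and 82 (53.9%) over 200 kb away, and of the RAD-only boundaries 51 (38.3%) and 61 (45.9%). At the edge of the rule, 25 MAD-only and 24 RAD-only boundaries had their nearest counterpart at exactly 60 kb and were just inside, while 107 MAD and 80 RAD boundaries had it at exactly 40 kb and were just outside. Allowing 1 bin less, 20 kb, gave 259 MAD-only and 213 RAD-only boundaries, and 1 bin more, 60 kb, gave 127 and 109. With 100 kb allowed there were 110 and 82.

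All but 2 of the 285 boundary bins lay inside a TAD of both other depots. These were 150 of the 152 MAD-only boundaries (98.7%) and 133 of the 133 RAD-only boundaries, and the 2 others lay beyond the end of a TAD list. At 131 MAD-only and 110 RAD-only boundaries 2 TADs met. In 98 (74.8%) and 77 (70.0%) of those both outer ends of the pair were kept, within 40 kb, as boundaries in both other depots. Whether another boundary lay between those ends was not checked. Not all of these pairs need therefore correspond to 1 TAD there. The TADs beside the members had a median length of 440 kb in MAD and 480 kb in RAD, close to the median of 500 kb of all TADs in each of these depots. The host TADs in the other depots were longer, with medians of 860 kb around MAD-only and 880 kb around RAD-only boundaries. A bin over 40 kb from every boundary of a depot falls more easily in its longer TADs, so the rule favours such hosts. GOM-only boundaries had much the same values, with 97.7% inside a TAD of both other depots. Their host TADs had a median of 880 kb and the TADs beside them one of 440 kb. The nearer end of the host lay at a median of 0.289 of its length from MAD-only and 0.286 from RAD-only boundaries. From GOM-only boundaries it lay at 0.305. The rule itself keeps members away from the ends of a host. At most members the other 2 depots had their own nearest boundaries close together, within 40 kb of one another, at 114 MAD-only (75%) and 86 RAD-only boundaries (64.7%).

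**Figure D1:**
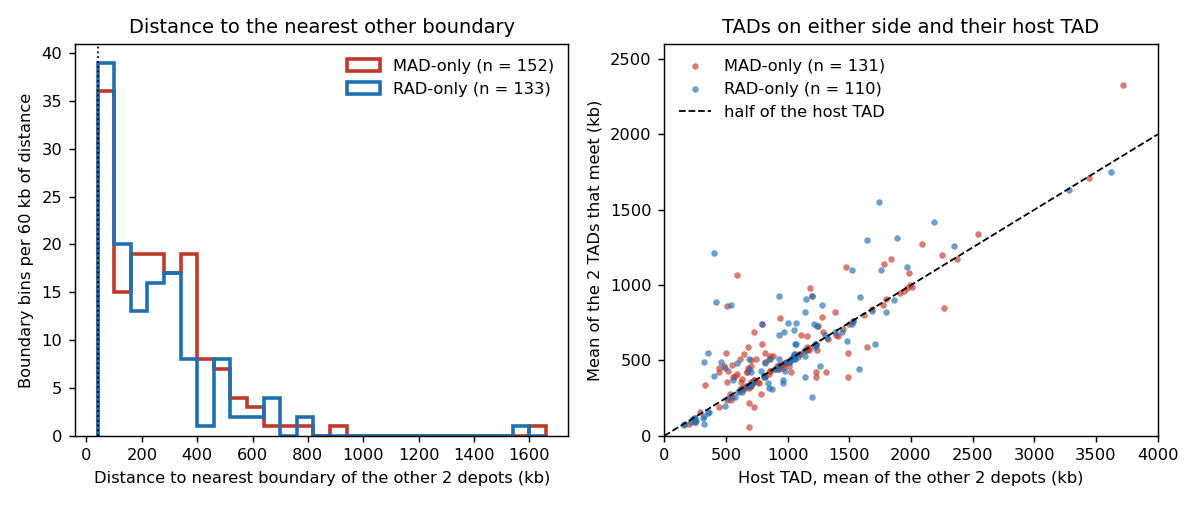
Left, number of MAD-only (red) and RAD-only (blue) boundary bins by distance in kb to the nearest boundary of the other 2 depots, with the dotted line at 40 kb. Right, mean length of the 2 TADs that meet at a member against the mean length of the TADs of the other 2 depots that hold it, both in kb; the points gather along the dashed line, on which the pair is together as long as the host TAD, for 131 MAD-only and 110 RAD-only boundaries.

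MAD and RAD thus each held fewer private boundaries than GOM, in which 308 of 4499 boundary bins (6.85%) had no counterpart, and GOM also had the most TADs, 4166 in MAD and 4187 in RAD against 4387 in GOM. The TAD lists come from 1 merged map each, and these counts have no replicate. The members are not all separate sites: 5 gaps between TADs had both edges among the MAD-only and 4 among the RAD-only boundaries, which leaves 147 and 129 sites. The 2 groups cannot lie within 40 kb of each other, by the rule. A RAD-only boundary lay within 200 kb of 12 of the 152 MAD-only boundaries (7.89%), and a MAD-only boundary within 200 kb of 13 of the 133 RAD-only boundaries (9.77%).

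Both groups were spread over the genome. Chromosome 26 held the highest share of private boundaries in both depots, 7 of 79 MAD boundaries (8.86%) and 6 of 77 RAD boundaries (7.79%), and GOM also had a high share there with 9 of 83 (10.8%). Chromosome 17 followed with 8 of 133 (6.02%) in MAD and 9 of 135 (6.67%) in RAD. The depots differed in count on the 2 longest chromosomes, with 11 MAD-only and 19 RAD-only boundaries on chromosome 1 but 18 and 9 on chromosome 2. No RAD-only boundary lay on chromosome 21 or 24, which held 3 MAD-only boundaries each. These are small counts on single merged maps, without a test.

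MAD-only and RAD-only boundaries lay in B chromatin more often than shared boundaries did. The bin was in B in all 9 libraries for 74 MAD-only (48.7%) and 70 RAD-only boundaries (52.6%), against 30.9% of the 3782 MAD boundaries and 31.2% of the 3783 RAD boundaries shared by all 3 depots, and 40.6% of all bins. It was in A in all 9 libraries for 41 MAD-only (27.0%) and 29 RAD-only boundaries (21.8%), against 47.9% and 47.3% of the shared boundaries and 39.4% of all bins. The remaining 37 MAD-only (24.3%) and 34 RAD-only boundaries (25.6%) changed sign among the libraries. The median index of the mean over 9 libraries was −1.06 at MAD-only and −1.04 at RAD-only boundaries, 0.653 and 0.613 at the shared boundaries of the same depots, and −0.107 over all bins. GOM-only boundaries had 47.1% in B and a median of −0.681, so the lean to B was not found in MAD and RAD alone. The rule favours long host TADs, and neither the shared boundaries nor all bins were matched for that. The median also moved with the tolerance. It was −0.809 at MAD-only and −1.15 at RAD-only boundaries with 20 kb, and −1.15 and −1.80 with 100 kb.

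The lean to B was present in libraries of every depot and not just in the depot with the boundary. At MAD-only boundaries the median index over the members was −1.05 to −0.94 in the 3 MAD libraries, −1.30 to −0.925 in the RAD libraries and −0.889 to −0.811 in the GOM libraries. The MAD values lay within the range of the RAD values and below those of GOM. At RAD-only boundaries it was −1.53 to −1.05 in the RAD libraries, −1.13 to −0.739 in the MAD libraries and −1.37 to −1.20 in the GOM libraries. The RAD values overlapped those of both other depots, while every MAD value lay above every GOM value. Over all bins the medians were −0.00325 to 0.00588 in MAD, −0.223 to −0.0494 in RAD and −0.0993 to −0.00367 in GOM, so the depots also differed in level over the whole genome.

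**Figure D2:**
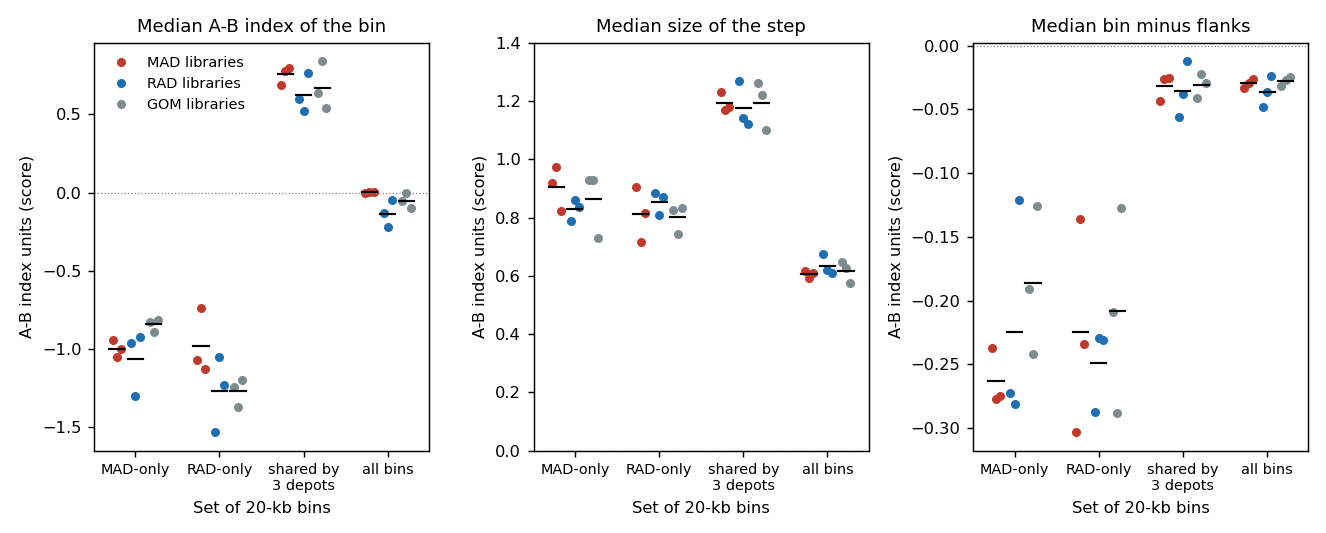
Median over the bins of each set, 1 point per library (red MAD, blue RAD, grey GOM) with a black line at the mean of the 3 libraries of a depot, in A-B index units. Left, index of the bin; middle, size of the step from the 100 kb before to the 100 kb after the bin; right, bin minus the mean of its flanks. The shared set is that of MAD. For the index, MAD-only and RAD-only boundaries lie between −1.53 and −0.739 in all 9 libraries, below all bins, while shared boundaries lie above 0.

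A boundary can also be an edge between compartments, and the members were so less often than shared boundaries. The step was taken as the mean index of the 5 bins after the boundary bin minus that of the 5 bins before it. Its median size was 0.780 at MAD-only and 0.817 at RAD-only boundaries, 1.17 at the shared boundaries of either depot and 0.556 over all bins. The flanks had opposite signs at 15 MAD-only (9.87%) and 15 RAD-only boundaries (11.3%), against 19.1% and 19.3% of shared boundaries and 9.48% of all bins. GOM-only boundaries were lower still, with a median step of 0.696 and opposite flanks at 6.82%, so this was not found in MAD and RAD alone. Again the depots overlapped: at MAD-only boundaries the median size was 0.824 to 0.975 in the MAD libraries, 0.789 to 0.860 in the RAD libraries and 0.730 to 0.929 in the GOM libraries. At RAD-only boundaries it was 0.807 to 0.883 in the RAD libraries, 0.717 to 0.906 in the MAD libraries and 0.744 to 0.833 in the GOM libraries.

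The bin was on balance below the mean of its 100-kb flanks. Bin minus flanks had a median of −0.189 at MAD-only and −0.237 at RAD-only boundaries, against −0.0554 and −0.0607 at the shared boundaries, −0.0664 at GOM-only boundaries and −0.0441 over all bins. The bin was below the mean of its flanks in all 9 libraries at 32 MAD-only (21.1%) and 28 RAD-only boundaries (21.1%), against 14.2% and 14.8% of shared boundaries and 9.44% of all bins. It was below 0 in the libraries of all 3 depots, whose ranges overlapped: at MAD-only boundaries the medians were −0.277 to −0.237 in the MAD libraries, −0.281 to −0.121 in the RAD libraries and −0.242 to −0.126 in the GOM libraries. At RAD-only boundaries they were −0.287 to −0.229 in the RAD libraries, −0.303 to −0.136 in the MAD libraries and −0.288 to −0.127 in the GOM libraries. The difference depended on the length of the flanks. With 2 bins a side it was −0.119 at MAD-only and −0.0802 at RAD-only boundaries, against −0.0235 over all bins, and the value for RAD-only boundaries was within its SD of 0.116 between the RAD libraries. At RAD-only boundaries the median index of the bin lay above that of the bins on either side, 20 kb away, in all 9 libraries.

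**Figure D3:**
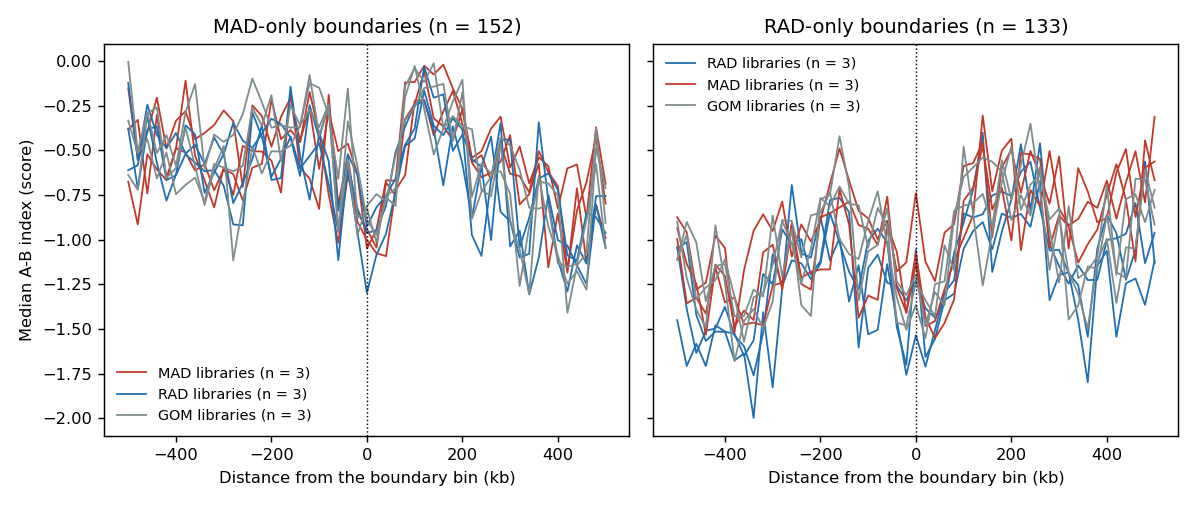
Median A-B index over the 152 MAD-only (left) and 133 RAD-only boundaries (right) by distance in kb from the boundary bin, 1 line per library (red MAD, blue RAD, grey GOM). The lines of the 3 depots run together, at MAD-only boundaries with low values at and beside the bin, where the 9 medians lie between −1.30 and −0.811. Values as low recur farther right, with medians of −1.41 to −0.60 at 420 kb, so the low is not particular to the bin. At RAD-only boundaries the median at the bin is above those of both adjoining bins in all 9 libraries.

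Bins whose index stands out from their surroundings were frequent near the members. In some long B stretches single bins, or short runs of them, return almost to an index of 0. The definition used, made after the data were seen, was wider. A bin was called near 0 if its mean index over 9 libraries was nearer 0, by more than 2, than the running median of 21 bins. This is possible only where the surroundings are far from 0, in A or in B. Such a bin need not itself be close to 0, nor stand out in each library. One lay within 100 kb of 47 MAD-only (30.9%) and 34 RAD-only boundaries (25.6%), against 13.7% of shared boundaries of either depot, 14.6% of GOM-only boundaries and 12.9% of all bins. With a difference of 1 in place of 2 the shares were 48.0% and 39.8%, against 26.5% of all bins, and with 3 they were 12.5% and 10.5%, against 6.22%. Where the surroundings were below −2, 36 of 60 MAD-only (60%) and 31 of 58 RAD-only boundaries (53.4%) had one, against 44.8% and 44.1% of shared boundaries and 30.0% of all bins. Such a bin in a B flank raises the mean of that flank. Among the 105 MAD-only and 99 RAD-only boundaries without one, bin minus flanks had a median of −0.0939 and −0.0867, against −0.0468 and −0.0494 at shared boundaries and −0.0365 over all bins without one. What these bins are was not tested.

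The next question was whether the compartment of a member differed in the depot that held it. For this the mean index of each 100-kb window was used, and each depot was set against the mean of the other 2 in a limma fit over 26570 windows and 9 libraries, with Benjamini-Hochberg adjusted p under 0.05. At MAD-only boundaries 20 of 152 windows (13.2%) passed, against 13.3% of all windows of the genome, so the share among the members was that of the genome. Among the members that passed, 12 (7.89%) had a higher index in MAD and 8 (5.26%) a lower one, against 10.4% and 2.88% of all windows. At an unadjusted p under 0.05 there were 45 members (29.6%), against 27.9% of all windows. The 3 MAD libraries lay above all 6 others at 21 members (13.8%) and below them at 10 (6.58%), against 12.1% and 2.96% of all windows. The whole genome was shifted in this contrast, with a median difference of 0.187 over all windows and 0.181 over the members. After quantile normalization, which removes that shift, 7 were higher and 12 lower, against 1731 and 1501 of all windows, so the excess of higher calls is not independent of the scaling. The count fell to 12 (7.89%) without MAD replicate 1, 2 or 3, where 5.98%, 8.73% and 6.5% of all windows passed. It fell to 13 (8.55%) without GOM replicate 1, against 9.11% of all windows. No member passed when single 20-kb bins were tested, and neither did any bin of the genome. With the animal as a replicate block 27 members passed (17.8%), against 16.8% of all windows.

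At RAD-only boundaries 0 of 133 windows passed the same limma test of RAD against the mean of the other 2 depots, where 0.629% of all windows passed. At an unadjusted p under 0.05 there were 17 members (12.8%), against 15.7% of all windows. No member had its 3 RAD libraries above all 6 others, against 0.482% of all windows, and 5 (3.76%) had them below, against 4.73%. The median difference was −0.135 over the members and −0.144 over all windows. With the animal as a replicate block 2 of 133 (1.5%) passed, against 2.80% of all windows. Without MAD replicate 1 also 2 (1.5%) passed, against 0.47% of all windows. On simulated data with the spread of these libraries, the window fit recovered 28 of 100 shifts of 1 in RAD and 33 of 100 in MAD. Of shifts of 3 it recovered 99 of 100 in each.

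**Figure D4:**
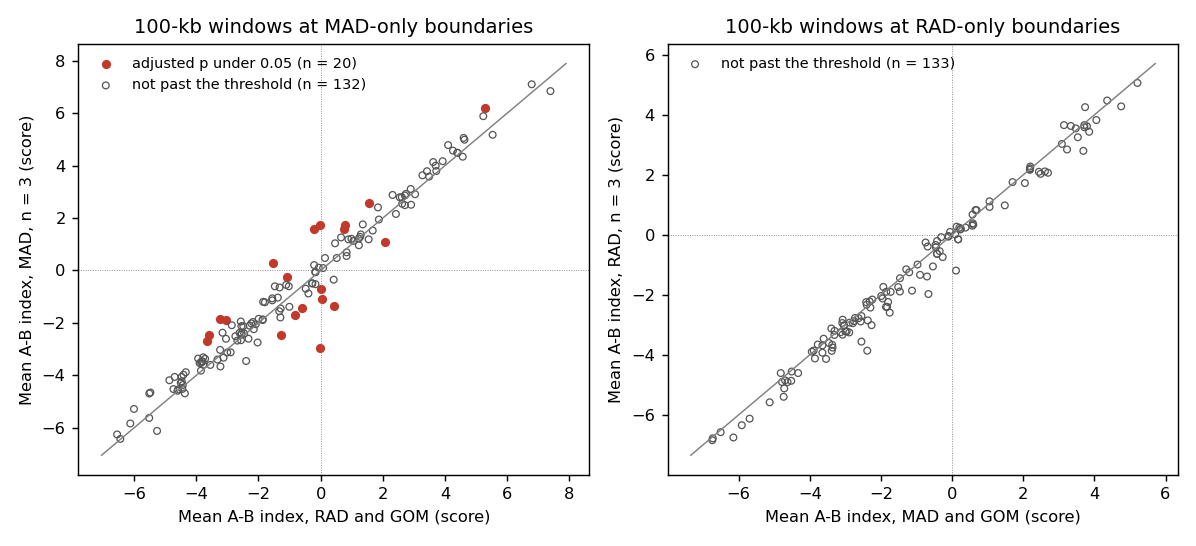
Mean A-B index of the 100-kb window that holds each member, in the depot with the boundary (vertical, mean of 3 libraries) against the mean of the other 2 depots (horizontal). Filled points passed the limma test at an adjusted p under 0.05, 20 of 152 MAD-only and none of 133 RAD-only boundaries; the grey line marks equal values.

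The 20 MAD-only boundaries that passed did not fall on one side of the compartments. In 9 the window was in B in MAD and in the mean of the other depots, in 5 in A in both, in 3 in A in MAD and in B in the others, and in 3 in B in MAD and in A in the others. Described next are 3 higher and 3 lower windows, those with the largest difference among members whose MAD libraries did not overlap the other 6. Positions are 1-based on Oar_rambouillet_v1.0. The genes at these sites were not analysed here.

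The largest rise was at the MAD-only boundary at chr1:295440001-295460000, which cut a TAD of 760 kb in RAD and GOM into TADs of 400 and 320 kb in MAD. The index of its window was 0.83, −0.37 and 0.42 in the MAD libraries, against −2.21, −1.89 and −2.13 in the RAD libraries and −0.83, −1.29 and −0.91 in the GOM libraries. All 3 MAD libraries lay above the 6 others, RAD was lowest, and the fitted difference was 1.84 with SE 0.257 (limma, adjusted p = 0.0012). The next rise was at chr2:234040001-234060000, between MAD TADs of 560 and 600 kb that together filled a TAD of 1180 kb in RAD and of 1160 kb in GOM. Here the MAD libraries had 2.14, 1.09 and 1.53, against 0.39, −0.64 and −0.24 in RAD and −0.66, −0.31 and 0.16 in GOM. MAD was in A in all 3 libraries whereas RAD and GOM straddled 0, a difference of 1.80 with SE 0.286 (limma, adjusted p = 0.00175).

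The third was at chr1:151480001-151500000, where TADs of 280 and 400 kb in MAD stood against 1 of 680 kb in RAD and 700 kb in GOM. Its window had 2.29, 1.36 and 1.59 in the MAD libraries, against 0.38, −0.08 and −0.87 in RAD and 0.06, −0.07 and 0.45 in GOM. MAD was again above every other library, by 1.76 in the fit with SE 0.284 (limma, adjusted p = 0.0019).

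The largest fall, and the largest change in either direction among the members, was at chr14:55460001-55480000, between MAD TADs of 360 and 380 kb inside a TAD of 740 kb in RAD and 720 kb in GOM. The window had −1.74, −3.80 and −3.36 in the MAD libraries, against −0.27, −0.51 and 0.22 in RAD and 0.87, 0.11 and −0.63 in GOM. The MAD libraries were in B throughout and spread widely, while RAD and GOM lay near 0, and the difference was −2.93 with SE 0.400 (limma, adjusted p = 0.00109). The index also dropped from left to right across the boundary in all 3 depots, with steps of −1.84, −2.33 and −2.11 in MAD, against −1.97, −2.18 and −2.65 in RAD and −1.47, −1.33 and −2.04 in GOM. These steps overlapped and their difference of −0.15 did not pass (limma, adjusted p = 0.865). Chromosome 14 held 3 boundaries of each group. With this chromosome left out of the fit, 3200 of 25858 windows (12.4%) passed in the MAD contrast, against 3530 of 26570 (13.3%) with it. The share was thus lower without chromosome 14, and the share that passed on chromosome 14 itself was not counted. Whether the change at this boundary was local to it or part of a wider difference along the chromosome was not tested.

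The boundary at chr1:118700001-118720000 lay 60 kb from a boundary of both other depots, the shortest distance the rule admits. Its window had −1.65, −1.02 and −1.44 in the MAD libraries, against −0.78, 0.63 and 0.38 in RAD and 1.29, 0.79 and 0.19 in GOM. MAD was below every other library, by −1.79 with SE 0.314 (limma, adjusted p = 0.00276). At chr17:17860001-17880000 a TAD of 1940 kb in RAD and GOM was cut in MAD near its right end, into 1700 and 220 kb. The MAD libraries had −2.53, −2.50 and −2.40, against −1.70, −1.52 and −1.33 in RAD and −0.96, −0.79 and −1.33 in GOM. All 9 libraries were in B here and MAD was deepest, by −1.20 with SE 0.211 (limma, adjusted p = 0.00271).

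The members farthest from any other boundary were in B in every library, apart from 1 on chromosome 20. The farthest was the MAD-only boundary at chr24:6040001-6060000, 1600 kb from the nearest boundary of RAD and of GOM, which split their common TAD of 3440 kb into 1840 and 1580 kb. Its window had −6.23, −6.51 and −6.54 in the MAD libraries, against −7.18, −6.57 and −6.27 in RAD and −6.18, −6.24 and −6.23 in GOM. The depots overlapped and the difference of 0.02 did not pass (limma, adjusted p = 0.972). Bins near an index of 0 lie to its right within 200 kb in all 3 depots. At chr10:61520001-61540000, 880 kb from the nearest other boundary, MAD libraries had −4.50, −3.94 and −4.43, against −5.13, −3.93 and −5.11 in RAD and −4.10, −4.58 and −4.16 in GOM, which overlap as well.

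The third MAD-only boundary by distance, at chr20:20820001-20840000 and 780 kb away, was the exception. It had −1.28, −1.05 and −0.97 in the MAD libraries, against −0.73, −0.44 and 0.37 in RAD and 0.69, −0.06 and 0.37 in GOM. MAD lay below the 6 others, by −1.13 with SE 0.260 (limma, adjusted p = 0.0111). Without MAD replicate 1 this difference no longer passed (limma, adjusted p = 0.0573).

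Among RAD-only boundaries the farthest was at chr9:73100001-73120000, 1580 kb from the nearest boundary of MAD and GOM. It split a TAD of 3520 kb in MAD and 3720 kb in GOM into 1940 and 1560 kb in RAD. The window had −3.49, −3.38 and −4.40 in the RAD libraries, against −3.32, −3.12 and −3.50 in MAD and −3.22, −3.46 and −3.53 in GOM. RAD replicate 3 was lowest and the depots overlapped (limma, difference −0.40, SE 0.256, adjusted p = 0.502). Those at chr1:60100001-60120000 and chr17:30300001-30320000 each lay 760 kb away. The first had −1.41, −1.41 and −2.40 in RAD, against −1.31, −1.09 and −1.90 in MAD and −1.74, −1.64 and −1.41 in GOM. The second had −4.67, −4.93 and −4.95 in RAD, against −4.15, −4.46 and −4.65 in MAD and −5.00, −5.14 and −4.78 in GOM. RAD was not set apart from GOM at either.

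**Figure D5:**
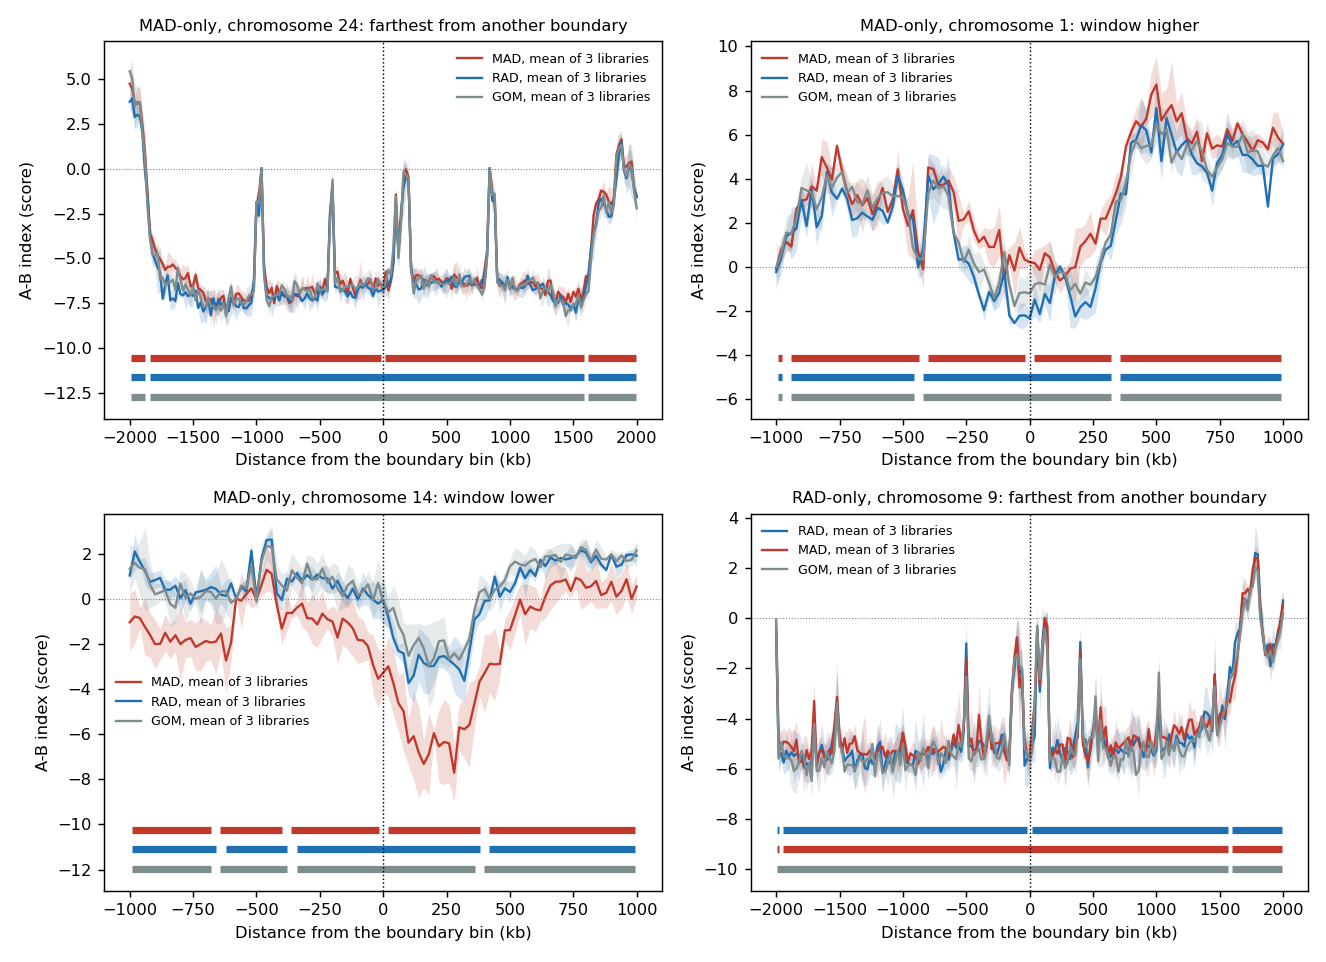
A-B index by distance in kb from the boundary bin around 4 members named in the text, as the mean of 3 libraries per depot with a band of 1 SD (red MAD, blue RAD, grey GOM), with the TADs of each depot as bars underneath. At the members of chromosomes 24 and 9 the 3 depots run together and bins near 0 interrupt the B stretch; at those of chromosomes 1 and 14 MAD lies above and below the others, with window differences of 1.84 and −2.93.

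The 2 RAD-only boundaries that passed with the animal as a block were named after their values were seen. At chr25:14080001-14100000 the window had −3.24, −4.59 and −3.75 in the RAD libraries, against −1.21, −2.15 and −2.47 in MAD and −3.12, −3.20 and −2.16 in GOM. RAD was below all other libraries, by −1.47, with an adjusted p of 0.061 without the block and 0.0135 with it (limma). At chr14:45580001-45600000 RAD had −1.88, −1.27 and −0.41, against −0.21, 1.14 and 1.23 in MAD and −0.48, −0.97 and −0.05 in GOM, with overlap of RAD and GOM. The difference was −1.30, with an adjusted p of 0.0964 without the block and 0.0141 with it (limma).

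No member's step passed the threshold in the limma fit over all 132537 bins. On simulated data with the spread of these libraries, this fit recovered 10 of 100 shifts of 1 in MAD and 11 of 100 in RAD. Of shifts of 3 it recovered 96 of 100 in each. A change of 1 in the step would therefore be missed at most members. Of the MAD-only boundaries 0 of 152 passed, where 0.131% of all bins did, and 14 (9.21%) had an unadjusted p under 0.05, against 11.6% of all bins. Of the RAD-only boundaries 0 of 133 passed, where 1 bin of the genome did (0.000755%), and 12 (9.02%) had an unadjusted p under 0.05, against 7.97%. The mean step was larger in the depot with the boundary at 91 MAD-only (59.9%) and 87 RAD-only boundaries (65.4%), against 49.7% and 55.3% of all bins, which is a count without a test. With flanks of 10 bins in place of 5, the step passed at 7 MAD-only boundaries (4.61%), against 3.01% of all bins. In the RAD contrast it passed at none of the RAD-only boundaries and at no bin of the genome. With the animal as a replicate block 1 MAD-only boundary passed (0.658%), at chr14:69920001-69940000, against 0.808% of all bins. The 7 found with longer flanks include the sites of chr1:151480001-151500000, chr1:295440001-295460000 and chr14:55460001-55480000 described above.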

How the data were processed

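Hi-C of 9 sheep libraries was analysed. Per the study's methods, the authors aligned the read pairs to Oar_rambouillet_v1.0 through Juicer, filtered them, called TADs from an insulation score on balanced 20-kb maps of merged replicates, and computed the A-B index. The deposited TAD files hold positions alone. The deposited A-B index is a score per 20-kb bin and library, positive for A, with no read depth beside it, so the depth behind a value is unknown.

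Boundary bins, distances and windows were computed with Python 3.11.15 and pandas 2.3.3. Windows of 100 kb and steps over 5 bins a side were fitted over the whole genome with limma 3.58.1 in R 4.3.3 (empirical Bayes with a variance trend, depot means, 6 residual degrees of freedom, Benjamini-Hochberg adjusted p under 0.05), with scripts tested on simulated data. The p-values measure the spread between the 3 libraries of a depot, pooled over the depots. The main fit left out the pairing by sheep, which the replicate block takes in. Same-numbered libraries come from the same sheep, and their deviations from the depot means correlated with a mean of 0.183 over 9 pairs. Over 18 pairs of different sheep the mean was −0.0916. Deviations sum to 0 within a depot, which ties this second value to the first, so it is no separate comparison. Members named in the text are the 3 farthest from another boundary in each group and up to 3 non-overlapping members per direction with the largest called window difference. Members and lists were chosen with earlier results of these data known. The expression tables and the genome sequence were not used here, since genes were not placed on this build, and mouse libraries were left out. Other tolerances, flanks, scalings and fits, the replicate block and the omission of each library or of chromosome 14 were tried.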

Additional observations from a re-analysis of the deposited data

How the results depend on the processing

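The boundary calls have no replicate or strength, so the precision of a member is not known. The index has no depth beside it, and its precision at a bin is known only from the spread between the libraries. A small change at a single member, and often one of 1, may have gone unseen. The number of members depended on the rule. With a tolerance of 0 kb there were 1246 MAD-only and 1004 RAD-only boundaries, with 20 kb 259 and 213, with 60 kb 127 and 109, with 100 kb 110 and 82, and with the bin just inside each TAD edge 256 and 216. Window calls at MAD-only boundaries numbered 12 to 22 over the fits without 1 library, 0 for single 20-kb bins and 27 with the replicate block, against 20. Those at RAD-only boundaries numbered 0 to 2 without 1 library, 2 with the animal as a replicate block, and 1 each after division by the SD, with a tolerance of 20 kb and without chromosome 14, against 0. Step calls at MAD-only boundaries numbered 7 with flanks of 10 bins and 1 each with the replicate block and a tolerance of 20 kb, against 0, and were 0 without any 1 library. Those at RAD-only boundaries were 0 in every alternative. Over the genome, MAD window calls numbered 1590 to 4193 without 1 library and 0 for 20-kb bins, against 3530. RAD window calls numbered 0 to 168 without 1 library, 0 for 20-kb bins, 419 after division by the SD, 37 after quantile normalization, 743 with the replicate block and 264 without chromosome 14, against 167. MAD step calls numbered 5 to 357 without 1 library, 3978 with flanks of 10 bins, 0 with flanks of 2 bins, 1071 with the replicate block and 115 without chromosome 14, against 174. RAD step calls numbered 0 to 2 without 1 library, 7 with the replicate block, and 0 with flanks of 2 or 10 bins, without a variance trend and after quantile normalization, against 1. The cause was not tested. The named members' windows and steps gave 370 alternative values. Of these, 332 kept their direction and their side of the threshold, 8 lost the call and 3 gained it. In 27 a difference that had not passed changed sign, and 0 turned a called direction. Of the 8 losses, 7 came with single 20-kb bins. The medians of index, step and bin minus flanks were also recomputed with alternatives chosen after seeing the data. The index was −1.15 to −0.0605 at MAD-only and −1.80 to −0.487 at RAD-only boundaries. The values nearest 0 were those without members next to a bin called near 0. That choice drops members with surroundings far from 0, mostly in B. The step ran over 0.487 to 1.13 and 0.579 to 1.05, lowest with flanks of 2 bins and highest with 10. Bin minus flanks ran over −0.326 to −0.0939 and −0.337 to −0.0802, largest in size with flanks of 10 bins and smallest without members next to a bin near 0 at MAD-only and with flanks of 2 bins at RAD-only boundaries. Expression of genes at the boundaries and boundary sequence were not run.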

Other observations

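The index was about as repeatable at the members as elsewhere. The SD between the 3 libraries of a depot, averaged over depots, had a median of 0.520 at MAD-only and 0.510 at RAD-only boundaries, against 0.487 and 0.486 at all MAD and RAD boundaries and 0.491 over all bins. Within 200 kb, 14 MAD-only (9.21%) and 10 RAD-only boundaries (7.52%) had a GOM-only boundary there, and 14 MAD-only (9.21%) and 12 RAD-only boundaries (9.02%) had another boundary of their own group there, some of them the opposite edge of the same gap. The rule admits no boundary of another depot within 40 kb, and the share for other bins was not computed.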
